A study of Homo sapiens with 12 samples.

Results

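The 10 genes described here are known targets of EWS-FLI1 in Ewing sarcoma: CCND1, ID2, NR0B1, NKX2-2, CAV1, STEAP1, PRKCB, GLI1, UGT3A2 and IGFBP3. They were taken by gene name, from a list of known targets, and all of them were among the 60645 gene names counted in every library. The choice was made with earlier results of these data known, so their counts beside all genes are descriptive. The libraries came from HEK-293T, a human embryonic kidney cell line, in which ARID1A had been knocked out; its product belongs to the SWI/SNF complexes, which move nucleosomes. All groups share this knockout, and each received 2 constructs; whether the line is 1 clone is not given in the sources used here. The ARID1A construct was an empty vector (cells without ARID1A), wild-type ARID1A (WT) or ARID1A lacking the region named IDR1b (ΔIDR1b). The other construct was EWS-FLI1 (fusion libraries) or an empty vector (control libraries). The 6 groups of 2 libraries each compare the EWS-FLI1 response of these genes between the 3 ARID1A states. Per the labels, 2 µg of EWS-FLI1 plasmid was transfected and the cells grew for 48 h, so the fusion was measured after short overexpression in a kidney line, not in a sarcoma cell. The labels number the libraries as repeats without calling them separate cultures, so p-values measure the spread between these libraries, which may be technical.

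EWS-FLI1 joins the activation domain of EWSR1 to the DNA-binding domain of FLI1, a factor of the ETS family. It binds single GGAA sites and, in Ewing sarcoma, tracts of repeated GGAA, where it recruits SWI/SNF complexes and opens distal chromatin. NR0B1, NKX2-2, CCND1, ID2, GLI1, CAV1, STEAP1, PRKCB and UGT3A2 are known as genes that depend on the fusion for high expression in the tumour, and IGFBP3 is known as a gene that it holds down.

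Sequence next to the start sites was read from the RefSeq promoter table (GRCh38.p14), which held 11 windows for 8 of the 10 genes. CCND1 and GLI1 were not among them. In the 250 bases before a start, GGAA on either strand, overlaps allowed, occurred in 92.7% of all 35116 windows of the table, with a median of 3 matches. The ID2 window held 4 matches, the NR0B1 window 5, the STEAP1 window 4, the UGT3A2 window 2, the IGFBP3 window 1 and the PRKCB window 0, and the NKX2-2 windows held 1 and 0; those of CAV1 are not reported here. The longer ETS motif CCGGAAGT occurred in 3.42% of all windows and in 0 of the 11. The following stretches are shown, each on the gene's strand with GGAA or TTCC in capitals, because ID2 and UGT3A2 changed with EWS-FLI1, and NR0B1 held 5 matches and was nearly silent. For ID2, whose window lies mostly in a leader exon of GENCODE 29, only 30 bases around each match are given. For NR0B1 the 42 bases ahead of its GENCODE 29 exon are given. In GENCODE 41, used for the counts, NR0B1 starts further downstream, at the end of the window. In that release ID2 and UGT3A2 start further upstream, at chr2:8678845 and chr5:36071358, so their windows lie within the span of the counted gene.
ID2, chr2:8681886-8681915 (+): tggctgcgaacgcGGAAgaaccaagcccac
ID2, chr2:8681926-8681955 (+): cgcgcccaccaatGGAAgcgcccgctcgtc
ID2, chr2:8681960-8681989 (+): tagacgtgccaccTTCCgccaatggggacg
ID2, chr2:8681980-8682009 (+): aatggggacgaagGGAAgctccagcgtgtg
UGT3A2, chr5:36066883-36067132 (-): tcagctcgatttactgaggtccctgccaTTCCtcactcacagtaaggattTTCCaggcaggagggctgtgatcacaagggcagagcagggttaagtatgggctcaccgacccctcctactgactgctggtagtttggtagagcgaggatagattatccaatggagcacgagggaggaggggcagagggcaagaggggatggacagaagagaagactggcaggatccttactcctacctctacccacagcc
NR0B1, chrX:30309599-30309640 (-): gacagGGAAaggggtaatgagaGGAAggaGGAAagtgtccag
A match describes the letters only, and binding was not measured here. The 4 matches of ID2 and the 3 in the NR0B1 stretch stand apart from each other, with no pair joined head to tail.

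Libraries held 11702251 to 14445379 counted fragments, so a count of 0 allowed up to 0.208 to 0.256 CPM, the limit that 3 counts set; such limits cover counting error only. CPM is the count scaled to a fixed library total, here on TMM-scaled library sizes. FLI1, which the fusion construct carries, lay between 0 and 0.146 CPM in the 6 libraries with the empty vector. With EWS-FLI1 it reached 1830 and 1688 CPM without ARID1A, 3675 and 3462 with WT and 1888 and 1906 with ΔIDR1b, 2.03 times as high with WT as without ARID1A. ARID1A lay at 147 to 165 CPM in the knockout libraries, 1843 to 2291 with WT and 2608 to 2878 with ΔIDR1b. The unequal FLI1 and ARID1A levels move with the ARID1A state, and their part in the results below was not tested. The 2 libraries of WT with EWS-FLI1 differed most from each other (chi-square per degree of freedom 12.1, against 3.02 to 6.13 in the other groups). Of 7 markers of HEK-293 cells 6 were above 1 CPM in every group, summing to 391 to 556 CPM, and NEFM was at or near 0. Markers of other cell types summed to 96.7 to 137 CPM, mostly COL1A1 and COL3A1, while PTPRC, CD3E and PECAM1 stayed below 0.3 CPM. In these bulk libraries, fewer cells making a transcript and less transcript per cell cannot be told apart.

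Averaged over the 3 ARID1A states, EWS-FLI1 moved 3 of the 8 genes that passed the filter on low counts (1 of 8, ID2, without ΔIDR1b empty-vector replicate 1). CCND1, which encodes cyclin D1, and UGT3A2, a UDP-glycosyltransferase, rose, and ID2, an inhibitor of basic helix-loop-helix factors, fell. The UGT3A2 call was lost in 9 of 20 alternatives, and those of CCND1 and ID2 in 1 each. NR0B1 and IGFBP3 did not pass the filter and were not tested. The background of this comparison was 0.466% of 20377 genes, a call being an adjusted p (Benjamini-Hochberg) under 0.05 in edgeR's quasi-likelihood test; 5 of the 8 had an unadjusted p under 0.05, beside 7.9% of all genes. The 8 genes had a median log2 fold change of 0.27, with 6 above 0, beside a median of -0.00 and quartiles of -0.10 and 0.10 over all genes. CAV1 (0.28), STEAP1 (0.32), GLI1 (0.25) and PRKCB (0.13) were above 0 without passing the test, and NKX2-2 stood at -0.00. The largest of the 8 effects, that of UGT3A2, was a 1.55-fold difference.

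**Figure D1:**
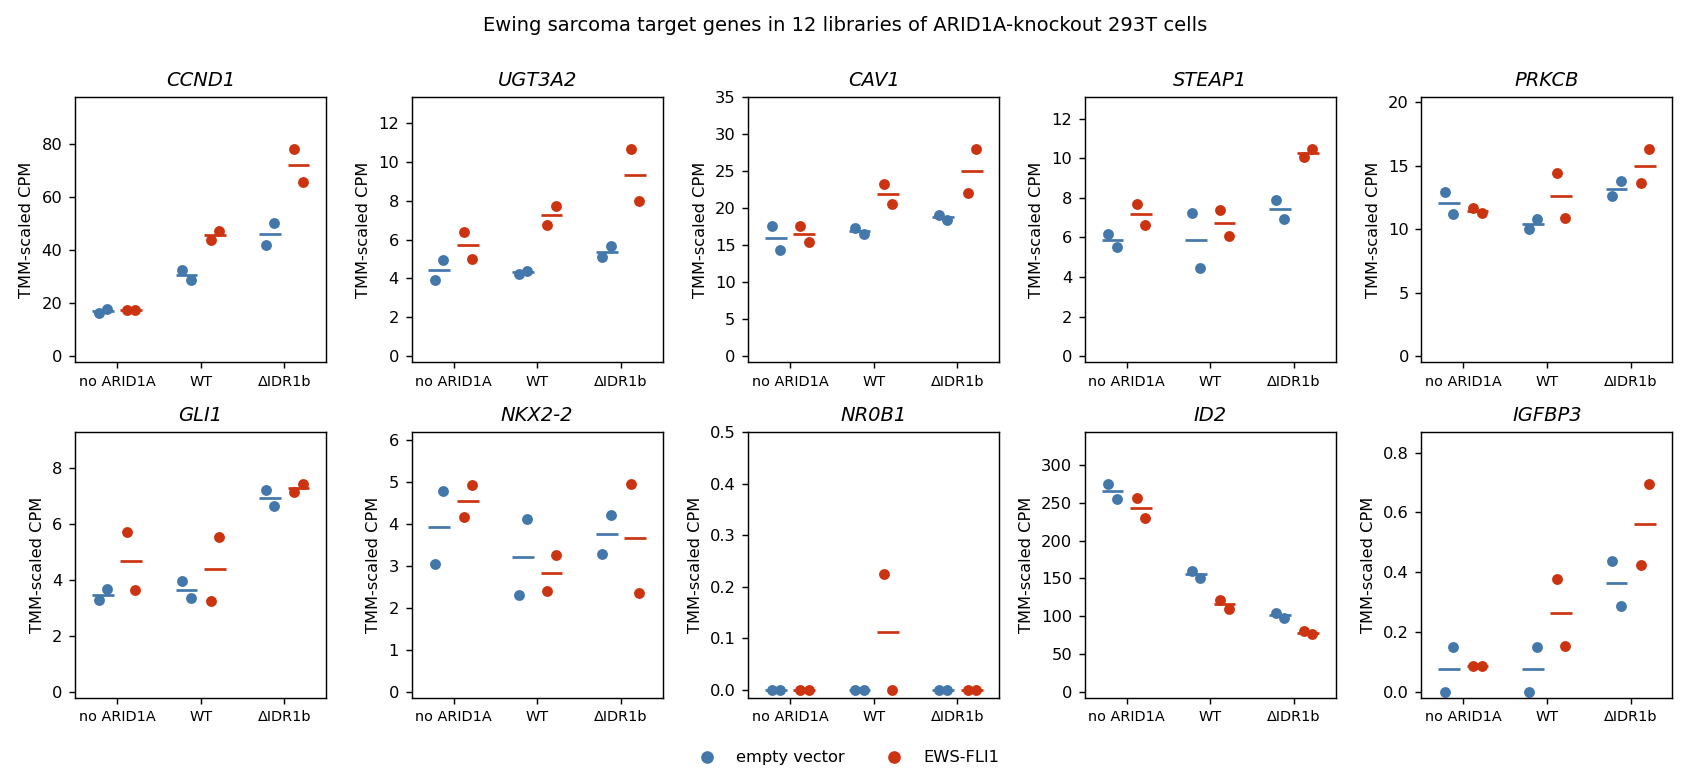
Each panel plots TMM-scaled CPM of 1 gene (vertical axis from 0, own scale) in the 3 ARID1A states; points are libraries, bars the means of 2, blue the empty vector and red EWS-FLI1. CCND1 climbs and ID2 descends from left to right with both vectors, and NR0B1 holds counts in 1 library only.

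CCND1 (chr11:69641156-69654474, + strand, GRCh38) drives the passage from G1 to S phase through CDK4 and CDK6. Without ARID1A the control libraries held 16.2 and 17.7 CPM and the fusion libraries 17.5 and 17.4 CPM. WT cells held 32.7 and 28.6 CPM in the controls and 44.0 and 47.1 CPM with the fusion. ΔIDR1b cells held 42.0 and 50.2 CPM in the controls and 78.3 and 65.6 CPM with the fusion. The EWS-FLI1 libraries were above the empty-vector libraries with WT and with ΔIDR1b, and within their range without ARID1A. The average log2 effect of EWS-FLI1 was 0.42 (SE 0.08, adjusted p = 0.00467, edgeR), with the adjusted p at 0.0503 when ΔIDR1b empty-vector replicate 1 was left out. By state, it was 0.04 (95% interval -0.27 to 0.35) without ARID1A, 0.57 (0.29 to 0.85, adjusted p = 0.0805) with WT and 0.64 (0.37 to 0.91, adjusted p = 0.0194) with ΔIDR1b.

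The WT value of CCND1 passed the threshold when repeats were blocked within each vector (adjusted p = 0.00481), with DESeq2 (0.0439), with no filter on low counts (0.0398) and without WT EWS-FLI1 replicate 1 (0.0216). The ΔIDR1b value lost its call without ΔIDR1b empty-vector replicate 1 (adjusted p = 0.708) or 2 (0.0562), or without ΔIDR1b EWS-FLI1 replicate 1 (0.798). The difference in the CCND1 effect between states was 0.53 (0.11 to 0.95, unadjusted p = 0.0141 in edgeR's quasi-likelihood test) for WT minus no ARID1A and 0.60 (0.19 to 1.01, unadjusted p = 0.00531) for ΔIDR1b minus no ARID1A. Both share the libraries without ARID1A, and neither passed adjustment over all genes (adjusted p = 1.00 for both). Between ΔIDR1b and WT it was 0.07 (-0.32 to 0.46).

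ARID1A itself was followed by larger CCND1 differences than the fusion. With the empty vector CCND1 was 1.81-fold higher with WT (log2 0.85, SE 0.15, adjusted p = 1.39e-04, edgeR) and 2.72-fold higher with ΔIDR1b (log2 1.44, SE 0.14) than without ARID1A. With EWS-FLI1 it was 2.61-fold higher with WT (log2 1.38, SE 0.15, adjusted p = 2.10e-08) and 4.13-fold higher with ΔIDR1b (log2 2.05, SE 0.14, adjusted p = 3.93e-13). CCND1 was also higher with ΔIDR1b than with WT, by 0.59 with the empty vector (adjusted p = 0.00167, and 0.0733 without ΔIDR1b empty-vector replicate 2) and by 0.66 with EWS-FLI1 (adjusted p = 5.66e-04, edgeR). The libraries stood in the order no ARID1A, WT, ΔIDR1b without overlap with both vectors, as did 3.37% of all genes tested. CCND1 shares 10.4% of its exonic bases with LTO1, and strand was not used in counting. LTO1 was at 16.8 to 20.5 CPM in the groups without ARID1A and with WT and at 27.2 and 31.5 CPM with ΔIDR1b. Fragments of the shared stretch cannot be assigned to either gene.

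ID2 (chr2:8678845-8684461, + strand) is an E-box antagonist that lacks a DNA-binding domain, and in Ewing sarcoma it is known as a gene raised by the fusion. Here it moved the other way. In cells without ARID1A the controls had 275 and 255 CPM and the fusion libraries 256 and 230.2 CPM. In WT cells the controls had 160.3 and 150.0 CPM and the fusion libraries 122 and 109 CPM. In ΔIDR1b cells the controls had 104 and 98.1 CPM and the fusion libraries 79.9 and 75.6 CPM. EWS-FLI1 libraries lay below the empty-vector libraries with WT and ΔIDR1b, and the libraries without ARID1A overlapped. On average over the states ID2 fell to 0.807 of its level, a log2 change of -0.31 (SE 0.06, adjusted p = 0.00352, edgeR); without no-ARID1A EWS-FLI1 replicate 2 the adjusted p was 0.0563. The log2 effect was -0.12 (-0.33 to 0.08) without ARID1A, -0.43 (-0.63 to -0.22, adjusted p = 0.0811) with WT and -0.38 (-0.59 to -0.17, adjusted p = 0.243) with ΔIDR1b.

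Both latter values of ID2 passed with repeats blocked within each vector (adjusted p = 0.00213 with WT and 0.0200 with ΔIDR1b). The WT value also passed with DESeq2 (0.0203), with no filter (0.0480) and without WT EWS-FLI1 replicate 1 (0.00685), and the ΔIDR1b value without either library of WT with EWS-FLI1 (0.0324 and 0.0310). The difference between states in the effect on ID2 was -0.30 (-0.59 to -0.01, unadjusted p = 0.0437, adjusted p = 1.00, edgeR) for WT and -0.26 (-0.55 to 0.04) for ΔIDR1b, each against no ARID1A. With ARID1A, ID2 fell. In the control libraries, WT against no ARID1A gave a log2 fold change of -0.77 (SE 0.10, adjusted p = 2.39e-06, edgeR) and ΔIDR1b one of -1.39 (SE 0.10). In the fusion libraries they were -1.07 (SE 0.10, adjusted p = 3.02e-09) and -1.64 (SE 0.10, adjusted p = 3.76e-14, edgeR). ΔIDR1b was lower than WT by -0.62 (adjusted p = 3.79e-05) and -0.57 (adjusted p = 2.02e-04). The descending order without overlap with both vectors was shared by 4.43% of all genes. ID2 shares 6.55% of its exonic bases with ID2-AS1, which was at 2.70 to 4.93 CPM per group.

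Of the 3 paralogs of ID2, ID3 was lower with both forms of ARID1A than without it, with both vectors. ID3 was at 216 and 199 CPM without ARID1A with the empty vector, at 123 and 93.5 CPM with WT and at 55.1 and 49.8 CPM with ΔIDR1b. Its log2 fold change against no ARID1A was -0.94 (SE 0.12) with WT and -1.99 (SE 0.12) with ΔIDR1b, and with EWS-FLI1 -0.97 and -1.78, all called. ID1 fell by 0.95 on the log2 scale with ΔIDR1b and the empty vector (SE 0.15) and by 1.16 with EWS-FLI1 (SE 0.16). ID4 was at 124 and 85.5 CPM in the WT controls, and was lower with ΔIDR1b than with WT there by -0.78 (SE 0.13, adjusted p = 3.85e-05, edgeR; -0.48, still called, without WT empty-vector replicate 1). WT against no ARID1A was not called for ID4 with either vector (0.13 in the controls and -0.07 in the fusion libraries), and for ID1 it was called in the fusion libraries (-0.51, adjusted p = 0.0153) and not in the controls (-0.34, adjusted p = 0.128). ID4 also fell with EWS-FLI1 on average over the states, with a log2 change of -0.33 (SE 0.08, adjusted p = 0.0253); this call was lost in 8 of 20 alternatives, each leaving out 1 library. The mean ID4 level was 95.9 CPM without EWS-FLI1 and 77.9 CPM with it in cells without ARID1A.

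UGT3A2 (chr5:36035021-36071358, - strand) encodes an enzyme that joins sugars to small lipophilic molecules. The controls without ARID1A were at 3.94 and 4.94 CPM and the matching fusion libraries at 6.39 and 5.01 CPM. The WT controls were at 4.24 and 4.41 CPM and the WT fusion libraries at 6.77 and 7.73 CPM. The ΔIDR1b controls were at 5.12 and 5.65 CPM and the ΔIDR1b fusion libraries at 10.7 and 7.99 CPM. UGT3A2 was the single gene of the 8 whose EWS-FLI1 libraries lay above the empty-vector libraries in all 3 states, as 1.2% of all tested genes did. The average log2 effect was 0.63 (SE 0.15, adjusted p = 0.0410, edgeR). The call was lost in 9 of 20 alternatives, 8 of which left out 1 library and 1 of which raised the count minimum to 30, with an adjusted p of up to 0.236 (without ΔIDR1b EWS-FLI1 replicate 1). By state the effect was 0.36 (-0.19 to 0.91) without ARID1A, 0.74 (0.21 to 1.28) with WT and 0.79 (0.28 to 1.30) with ΔIDR1b, none called. With EWS-FLI1, UGT3A2 was 1.64-fold higher with ΔIDR1b than without ARID1A (log2 0.71, SE 0.25, adjusted p = 0.0268); this was not called with DESeq2 (0.0509), with no filter (0.0602) or without no-ARID1A EWS-FLI1 replicate 2 (0.226) or ΔIDR1b EWS-FLI1 replicate 1 (0.276). Its paralog UGT3A1 had a mean of 0.354 CPM in 1 group and 0 in the others.

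CAV1 and STEAP1 encode membrane proteins. CAV1 (chr7:116524994-116561179, + strand) is the coat protein of caveolae. CAV1 stood at 17.5 and 14.4 CPM in the controls without ARID1A and at 17.6 and 15.4 CPM in the fusion libraries. It stood at 17.3 and 16.5 CPM (controls) and 23.3 and 20.6 CPM (fusion) with WT, and at 19.1 and 18.4 CPM (controls) and 22.0 and 28.1 CPM (fusion) with ΔIDR1b. The libraries with the fusion were higher in both states with ARID1A, and overlapped with the controls without it. The average log2 effect was 0.28 (0.08 to 0.48, adjusted p = 0.353, edgeR) and was not called. With EWS-FLI1, CAV1 was 1.52-fold higher with ΔIDR1b than without ARID1A (log2 0.60, SE 0.17, adjusted p = 0.00563). That call was lost without no-ARID1A EWS-FLI1 replicate 2 (0.0896) or ΔIDR1b EWS-FLI1 replicate 2 (0.140). With the empty vector the same difference was 0.23 (-0.11 to 0.58).

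STEAP1 (chr7:90154456-90164829, + strand), belongs to a family of metalloreductases of the cell surface. Without ARID1A its controls held 6.17 and 5.53 CPM and its fusion libraries 7.67 and 6.65 CPM. The values were 7.22 and 4.48 CPM (controls) and 7.38 and 6.06 CPM (fusion) with WT, and 7.90 and 6.93 CPM (controls) and 10.1 and 10.5 CPM (fusion) with ΔIDR1b. The libraries with the fusion did not overlap with the controls without ARID1A and with ΔIDR1b, and overlapped with WT. STEAP1 was not called in any of the 13 contrasts in edgeR. Between ΔIDR1b and WT with EWS-FLI1 its log2 difference was 0.61 (SE 0.24, adjusted p = 0.0711), which passed with repeats blocked within each vector (adjusted p = 0.0431). Its paralog STEAP3 was called in that contrast (0.74, SE 0.14, adjusted p = 2.85e-04) and, against no ARID1A, with the empty vector (0.91, SE 0.14).

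GLI1 and PRKCB act in signalling. GLI1 (chr12:57459785-57472268, + strand), a transcription factor at the end of the Hedgehog pathway, was at 3.27 and 3.66 CPM in the controls without ARID1A and at 5.71 and 3.63 CPM in the fusion libraries. Its WT libraries held 3.94 and 3.36 CPM (controls) and 3.24 and 5.53 CPM (fusion), and its ΔIDR1b libraries 7.24 and 6.65 CPM (controls) and 7.15 and 7.44 CPM (fusion). All 4 ΔIDR1b libraries lay above the 8 others, and the share of all genes with this order was not counted. The libraries with and without the fusion overlapped in every state. The average EWS-FLI1 effect was 0.25 (-0.09 to 0.60, adjusted p = 0.787, edgeR). With the empty vector GLI1 was 2.00-fold higher with ΔIDR1b than without ARID1A (log2 1.00, SE 0.29, adjusted p = 0.00854; 0.0682 without no-ARID1A empty-vector replicate 1 and 0.0557 without ΔIDR1b empty-vector replicate 1). It was 1.90-fold higher than with WT (log2 0.92, SE 0.29, adjusted p = 0.0191), and this call was lost when any 1 of the 4 libraries compared was left out (adjusted p of 0.0602 to 0.126). In the fusion libraries neither difference was called. Against no ARID1A it was 0.64 (adjusted p = 0.0814), with 1.00 (adjusted p = 0.0454) without no-ARID1A EWS-FLI1 replicate 1 and 0.35 (adjusted p = 0.507) without replicate 2 of that group. Against WT it was 0.73 (adjusted p = 0.0698; 0.0458 with repeats blocked within each vector), with 0.39 (adjusted p = 0.472) without WT EWS-FLI1 replicate 1 and 1.17 (adjusted p = 0.0134) without replicate 2.

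Among the other Hedgehog genes, GLI2, a paralog of GLI1, was higher with ΔIDR1b than with WT in the cells with the empty vector (log2 0.73, SE 0.16, adjusted p = 0.00109, edgeR). Its mean was 18.4 CPM with WT and 30.6 CPM with ΔIDR1b. SMO, the membrane transducer of the pathway, was higher with ΔIDR1b than without ARID1A with the empty vector (log2 0.81, SE 0.12, adjusted p = 3.46e-06). HHIP, an inhibitor that binds the ligand, was higher with EWS-FLI1 in the same comparison of states (0.83, SE 0.29, adjusted p = 0.0266), a call lost in 5 of 21 alternatives. PTCH1, the receptor and a target of GLI1, was lower with WT than without ARID1A with the empty vector (-0.44, SE 0.13, adjusted p = 0.0251), a call lost in 4 of 21 alternatives. None of the Hedgehog genes was called in the average EWS-FLI1 contrast.

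PRKCB (chr16:23835983-24220611, + strand), a calcium- and diacylglycerol-dependent protein kinase, was at 12.9 and 11.2 CPM in the controls without ARID1A and at 11.7 and 11.2 CPM in the fusion libraries. Its WT libraries were at 10.0 and 10.8 CPM (controls) and 14.4 and 10.8 CPM (fusion), and its ΔIDR1b libraries at 12.6 and 13.8 CPM (controls) and 13.6 and 16.3 CPM (fusion). Groups lay close together, the highest mean being 1.44 times the lowest, and PRKCB was not called in any contrast. The average log2 effect of EWS-FLI1 was 0.13 (-0.10 to 0.36, adjusted p = 0.856, edgeR).

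NKX2-2 and NR0B1 encode nuclear factors on which Ewing sarcoma cells are known to depend. NKX2-2 (chr20:21511017-21514064, - strand), a homeodomain repressor, was at 3.05 and 4.79 CPM in the controls without ARID1A and at 4.18 and 4.93 CPM in the fusion libraries. The WT libraries gave 2.31 and 4.11 CPM (controls) and 2.41 and 3.26 CPM (fusion), and the ΔIDR1b libraries 3.29 and 4.22 CPM (controls) and 4.95 and 2.36 CPM (fusion). The WT fusion libraries lay below the fusion libraries without ARID1A (log2 -0.68, 95% interval -1.44 to 0.08). In the other pairs of groups that were compared the libraries overlapped, and NKX2-2 was not called in any contrast. Its average EWS-FLI1 effect was -0.00 with a 95% interval of -0.37 to 0.37. Of its exonic bases 43.9% lie over other annotated genes, NKX2-2-AS1, which had 0 counts in all libraries, and ENSG00000289590, which had at most 2 counts in a library.

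NR0B1 (chrX:30304206-30309390, - strand), the orphan receptor DAX1, had 0 counts in 11 of the 12 libraries and 3 counts, 0.226 CPM, in WT EWS-FLI1 replicate 1. The 4 libraries without ARID1A and the 4 with ΔIDR1b, at 0 counts, allowed up to 0.0598 and 0.0534 CPM over each 4 together, from the limit of 3 counts. With WT, the 3 counts with EWS-FLI1 against 0 with the empty vector gave a counting interval of the ratio from 0.419 upwards without a bound, so a difference was not detectable at this depth. The 6 fusion libraries held FLI1 at 1688 CPM or more.

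IGFBP3 (chr7:45912245-45921874, - strand), a secreted protein that binds insulin-like growth factors, had 39 counts in all. Cells without ARID1A gave 0 and 2 counts in the controls and 1 and 1 in the fusion libraries. WT cells gave 0 and 2 (controls) and 5 and 2 (fusion), and ΔIDR1b cells 6 and 4 (controls) and 6 and 10 (fusion). Pooled over both vectors, the level was 0.0798 CPM without ARID1A, 0.169 CPM with WT and 0.463 CPM with ΔIDR1b. The ratio of EWS-FLI1 to empty vector was 1.15 (95% counting interval 0.0834 to 15.9) without ARID1A, 3.55 (0.675 to 35) with WT and 1.55 (0.662 to 3.83) with ΔIDR1b. Each interval covers 1, so neither a rise nor a fall was detectable at this depth.

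Per kilobase of exon, ID2 was the most abundant of the 10 genes in every group, at 119.8 CPM per kb without ARID1A and 35.1 CPM per kb with ΔIDR1b and EWS-FLI1. Without ARID1A and with the empty vector, CAV1 (4.12), STEAP1 (3.79) and CCND1 (3.56 CPM per kb) followed, and their libraries overlapped. NKX2-2 (1.85) and UGT3A2 (1.65) overlapped as well, and PRKCB (1.09), GLI1 (0.760) and IGFBP3 (0.0164) came below them. Fragments over exons shared with another gene were not counted. For NKX2-2 43.9% of the exonic bases are shared, so its value per kb may be too low. With ΔIDR1b and EWS-FLI1, CCND1 stood at 15.1 CPM per kb, above STEAP1 (6.65) and CAV1 (6.48), which overlapped, and UGT3A2 stood at 3.48. The highest group mean was 4.24 times the lowest for CCND1, 3.41 times for ID2, 2.16 times for UGT3A2 and 2.10 times for GLI1.

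**Figure D2:**
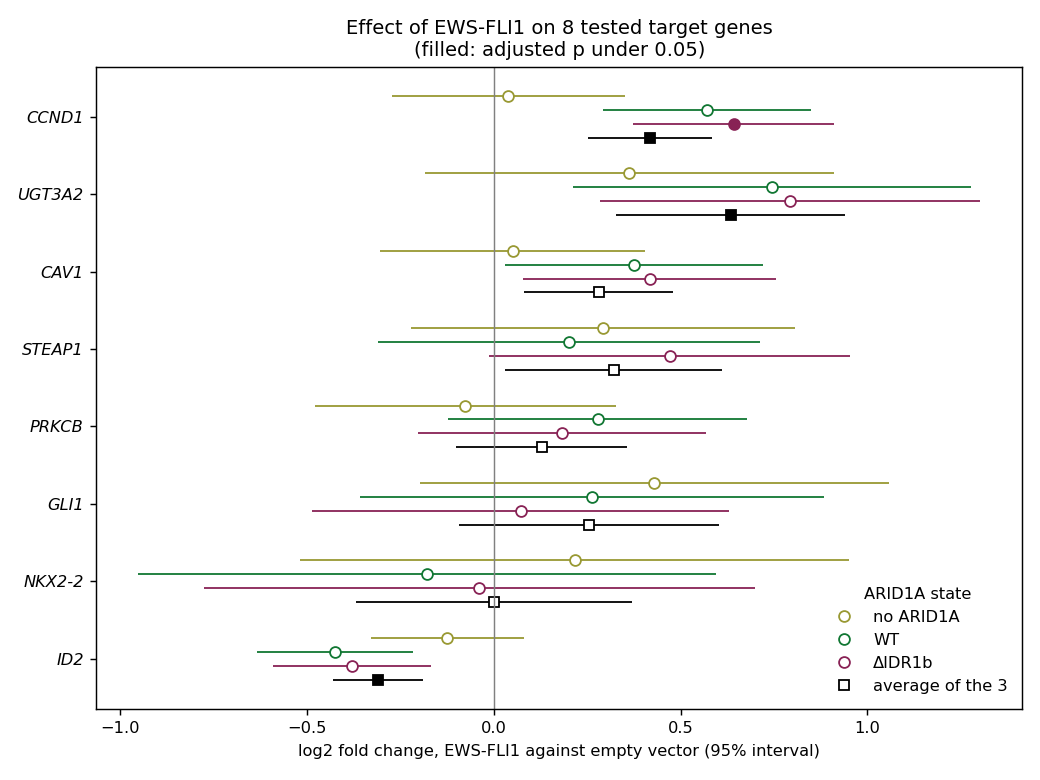
Log2 fold changes of EWS-FLI1 against the empty vector with 95% intervals for 8 genes, in each ARID1A state (circles) and averaged (squares); filled symbols have an adjusted p under 0.05 in edgeR. In the cells without ARID1A no symbol is filled, and ID2 is the gene whose 4 values are all below 0.

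Split by state, EWS-FLI1 against the empty vector gave 0 of 8 genes called without ARID1A (background 0.0442%, edgeR; 0 at an unadjusted p under 0.05, beside 3.16% of all genes; 0 by DESeq2). With WT 0 were called (background 0.221%; 4 at an unadjusted p under 0.05, beside 6.53%; 2 by DESeq2, CCND1 and ID2). With ΔIDR1b 1 was called, CCND1 (background 0.172%; 4 at an unadjusted p under 0.05, beside 5.45%; 1 by DESeq2). With repeats blocked within each vector, CCND1 and ID2 were called with WT and with ΔIDR1b. That block called 119 of all genes with WT and 109 with ΔIDR1b, against 45 and 35 without it. Without ARID1A, 2 of the 8 genes had fusion libraries above all control libraries and 0 below, beside 16.8% and 18.6% of all genes. With WT, 4 were above and 1 below, beside 16.1% and 13.8%, and with ΔIDR1b 4 were above and 1 below, beside 17.9% and 18%. A call in one state and not in another does not show that the states differ. The tests of the difference in effect between states called 0 of the 8 genes in edgeR and in DESeq2. For WT minus no ARID1A (background 0.0245%), 2 had an unadjusted p under 0.05, beside 4.34% of all genes. For ΔIDR1b minus no ARID1A (background 0.0196%) 1 had, beside 3.45%, and for ΔIDR1b minus WT (background 0%) 0 had, beside 3.64%.

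**Figure D3:**
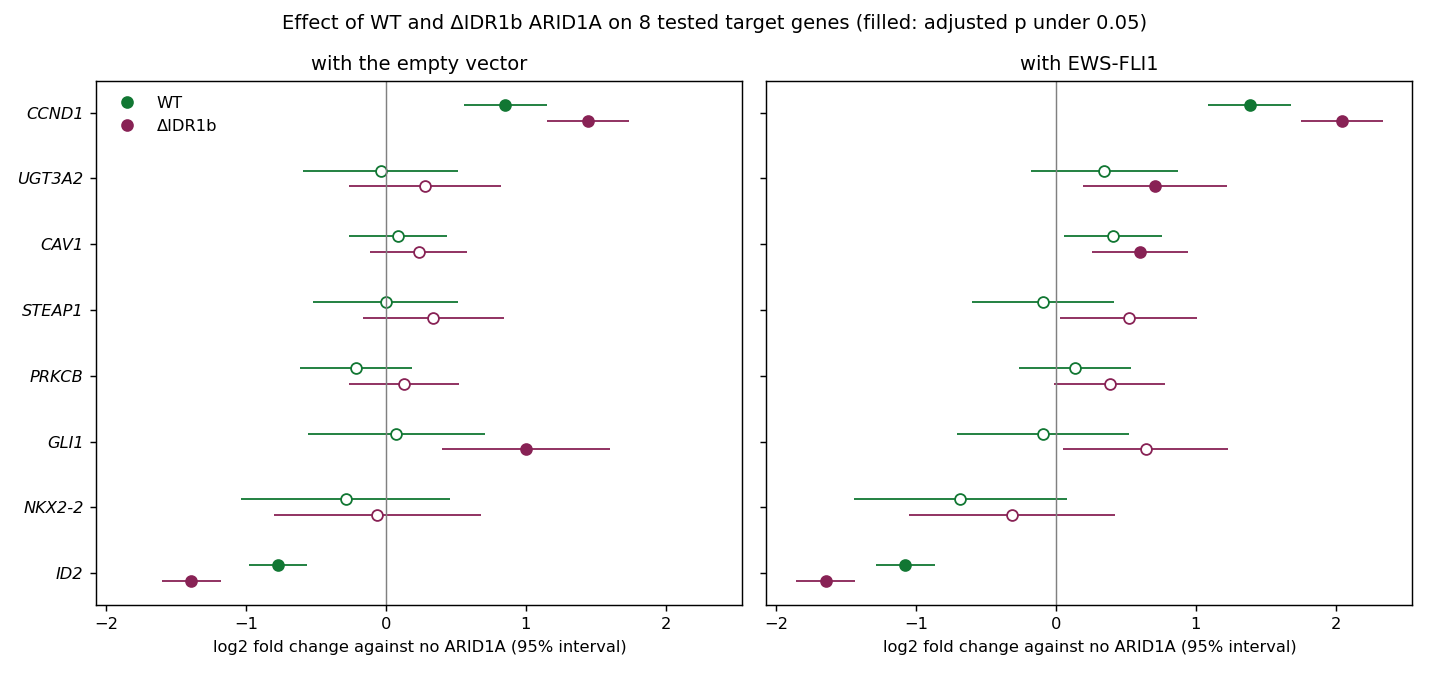
Log2 fold changes of WT (green) and ΔIDR1b (purple) ARID1A against no ARID1A with 95% intervals, with the empty vector on the left and EWS-FLI1 on the right; filled points have an adjusted p under 0.05 in edgeR. CCND1 and ID2 lie farthest from 0 on opposite sides in both panels, and ΔIDR1b lies beyond WT for both.

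Between ARID1A states the share of called genes was high throughout, and the counts of the 8 genes are to be read against it. With the empty vector, WT differed from no ARID1A in 2 of 8 (background 11.7%), ΔIDR1b from no ARID1A in 3 (33.3%) and ΔIDR1b from WT in 3 (24.5%, and 1 without ΔIDR1b empty-vector replicate 2). With EWS-FLI1 the counts were 2 (background 18.1%), 4 (35.9%, and 2 without no-ARID1A EWS-FLI1 replicate 2) and 2 (18.6%, and 4 with repeats blocked within each vector, which added STEAP1 and GLI1). That block also called more of all genes for ΔIDR1b against WT with EWS-FLI1, 5049 against 3785 without it. CCND1 rose and ID2 fell in all 6 comparisons of ARID1A states, which share libraries. The median log2 fold change of the 8 genes for ΔIDR1b against no ARID1A was 0.56 in the fusion libraries and 0.26 in the controls, beside 0.02 and 0.00 over all genes. For WT against no ARID1A it was 0.02 and -0.02, beside -0.02 and -0.01.

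Other known targets of EWS-FLI1 were described by 2 lists written from general knowledge. These lists, and those of paralogs and partners below, were chosen with earlier results of these data known. Their counts and medians beside all genes are descriptive. Of 31 other genes known to be activated, 25 were tested and 0 were called in the average EWS-FLI1 contrast in edgeR and in DESeq2 (9 at an unadjusted p under 0.05), with 20 above 0 and a median log2 fold change of 0.12. Over all genes 0.466% were called, 7.9% had an unadjusted p under 0.05, and the median was -0.00. Of 14 genes known to be repressed, all tested, 1 was lower and 1 higher, beside the same 0.466%, with a median of -0.06. The lower gene was CCN1, a secreted matricellular protein, with -0.50 (SE 0.06, adjusted p = 1.65e-06, edgeR). CCN1 went from 354 and 341 CPM to 270.4 and 245 CPM without ARID1A. With WT it went from 607 and 534 to 397 and 369 CPM, and with ΔIDR1b from 115 and 137 to 83.2 and 96.3 CPM. Its libraries did not overlap in any state. Fusion libraries lay below the controls for 18.6% of all genes without ARID1A, 13.8% with WT and 18% with ΔIDR1b. The share of all genes lower in every state was not counted. CCN1 was called with WT (-0.57, adjusted p = 0.00296, lost in 2 of 21 alternatives) and with ΔIDR1b (-0.49, adjusted p = 0.0435, lost in 6 of 21 alternatives). The higher gene was PHLDA1, a pleckstrin homology-like protein, with 0.66 (SE 0.16, adjusted p = 0.0351), lost in 11 of 20 alternatives.

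Between ARID1A states, genes of these lists moved in both directions. Of the activated list, MYC was higher with WT than without ARID1A, by 0.61 with the empty vector (SE 0.12) and 1.02 with EWS-FLI1 (SE 0.12, adjusted p = 9.61e-08, edgeR). E2F3, a cell cycle factor, was higher with ΔIDR1b than without ARID1A with the empty vector (1.28, SE 0.12, adjusted p = 2.93e-10), and EZH2, the Polycomb methyltransferase, was lower with ΔIDR1b than with WT (-0.50 in the controls, lost in 2 of 21 alternatives, and -0.43 in the fusion libraries, lost in 3 of 21, with -0.24 without WT EWS-FLI1 replicate 1). Of the repressed list, CCN1 was higher with WT than without ARID1A (0.72) and lower with ΔIDR1b (-1.46), both with the empty vector. Of 30 paralogs of the 10 genes, of which IGFBP5 is also on the repressed list, 26 were tested, and ID4 was the 1 called in the average EWS-FLI1 contrast; NKX2-1, the paralog of NKX2-2, was lower with ΔIDR1b than without ARID1A in the fusion libraries (log2 -1.12, SE 0.18, adjusted p = 1.08e-05).

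Of 22 partners in the cyclin D and RB, Hedgehog, insulin-like growth factor and caveola systems, 19 were tested. None was called for EWS-FLI1 on average in edgeR or DESeq2 (2 at an unadjusted p under 0.05), beside 0.466% and 7.9% of all genes, and the median was -0.01. For ΔIDR1b against no ARID1A, 13 were higher and 3 lower in the fusion libraries, and 11 higher and 2 lower in the controls, with medians of 0.45 and 0.42. Over all genes 35.9% and 33.3% were called in these contrasts, with medians of 0.02 and 0.00. EHD2, an ATPase of the caveola neck, was higher in the fusion libraries (0.91, SE 0.19) and in the controls (0.76, SE 0.18, a call lost in 1 of 21 alternatives). IRS1, an adaptor of the insulin-like growth factor receptor, was higher with EWS-FLI1 (0.96, SE 0.21, adjusted p = 4.41e-04, edgeR), and IRS2 with the empty vector (1.02, SE 0.19). E2F1 was higher with WT than without ARID1A (0.49 with the fusion and 0.47 in the controls), each call lost in 3 of 21 alternatives.

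Likeness of pattern was measured as Pearson's r of log2 CPM over the 12 libraries, across 16693 genes with a mean of at least 1 CPM. These r values describe points that share groups, library depth and scaling, and no test was made. CCND1 and ID2 had r = -0.985 with each other. The genes most like CCND1 were KIFBP (0.986), BAG5 (0.985) and GCC1 (0.979), and those most like ID2 were H1-2 (0.992), CCNL2 (0.986) and H2BC18 (0.985). GLI1 was most like its paralog GLI2 (0.953), with C11orf24 (0.939) and TMEM203 (0.939) next. UGT3A2 was most like RASIP1 (0.922), CAV1 like R3HCC1L (0.928), PRKCB like ZNF442 (0.935), STEAP1 like SPDYE18 (0.907) and NKX2-2 like RABL2A (0.885). CAV1 had r between 0.713 and 0.793 with CCND1, PRKCB, STEAP1 and UGT3A2. For NKX2-2, r with the 7 others ran from -0.562 (CAV1) to 0.262 (ID2).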

How the data were processed

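Polyadenylated RNA of 12 libraries was analysed, 2 per group. The authors' deposited values are raw counts of fragments per gene name; per the file headers they were made with featureCounts 2.0.1 on exons of GENCODE 41 (GRCh38.p13), with both ends aligned, no strand option, and no counting of multi-mapping fragments or of fragments over several genes. Duplicates, marked per the file headers, were not removed. STAR is named in the submitters' processing notes without a version.

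Genes passing filterByExpr (minimum count 10, total 15) were kept, 20377 in all. A TMM-scaled quasi-likelihood model with 1 mean per group over all 12 libraries was fitted with edgeR 4.0.16 and limma 3.58.1 in R 4.3.3 and was tested on simulated data. In it, 13 contrasts were tested (2-sided), with Benjamini-Hochberg adjustment over all genes and calls at 0.05. Intervals are 95%. The common biological variation was 10.1%. The members and lists were chosen with earlier results of these data known. All 10 members are named. Of the lists, genes called in the average contrast or an interaction are named, and otherwise at most 3 per list and contrast, by size. ID1, ID3 and GLI2 levels, UGT3A1 and the overlapping genes were added after values were seen.

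Alternatives were other scaling (RLE, upper quartile), DESeq2 1.42.0, no filter or a minimum count of 30, only the libraries compared, replicate blocks, the introduced genes left out, and each library left out. The pairing of repeats comes from the data, not the labels: over 10695 genes of at least 10 CPM, differences between repeats 2 and 1 correlated at r = 0.104 to 0.194 between groups with the empty vector, at 0.153 to 0.412 between groups with EWS-FLI1 and at -0.223 to -0.00785 across vectors. At 5 CPM the lowest r within a vector was 0.0809. A part of the promoter sequences is not reported here.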

Additional observations from a re-analysis of the deposited data

How the results depend on the processing

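No recalculated single value changed sign. Single values of members were recalculated only where the log2 value was at least 2 SE from 0. A change of sign was therefore unlikely from the start. The average EWS-FLI1 effects of NKX2-2, PRKCB and GLI1 lay below this limit and were not recalculated, so whether they hold was not tested. Of 272 recounts of the 13 member counts, 258 stayed within 1.5 times and 14 moved. The average EWS-FLI1 contrast held 1 to 3 called members when 1 library was left out. With WT the count was 2, against 0, under DESeq2, with no filter and with the replicate block within each vector, and 0 to 2 with 1 library left out. With ΔIDR1b it was 2, against 1, under that block, and 0 to 2 with 1 library left out. For ΔIDR1b against no ARID1A with EWS-FLI1 the range without 1 library was 2 to 5, and with the empty vector 2 to 3. For ΔIDR1b against WT it was 2 to 3 with EWS-FLI1 (4 under the replicate block within each vector) and 1 to 3 with the empty vector. Of 417 recalculations of 20 called single values 390 kept the call, and of 355 of 17 values not called 340 stayed so. The replicate block over all libraries changed no call of a member; the block within each vector called 232 genes in the average contrast, 17 without ARID1A, 119 with WT and 109 with ΔIDR1b. Counts of all called genes ranged over the alternatives from 65 to 316 (95 reported) for the average contrast, 5 to 17 (9) without ARID1A, 24 to 230 (45) with WT and 23 to 109 (35) with ΔIDR1b. For WT against no ARID1A they ranged from 1828 to 4849 (3684) with EWS-FLI1 and from 802 to 3606 (2381) with the empty vector. For ΔIDR1b against WT they ranged from 1622 to 5049 (3785) and from 2754 to 6138 (4995), for ΔIDR1b against no ARID1A with the empty vector from 4484 to 8063 (6778). Interactions called 4 to 48 (5), 4 to 6 (4) and 0 to 26 (0) genes. Having 2 libraries per group and low levels of NKX2-2, GLI1, UGT3A2 and STEAP1 limit their precision, and NR0B1 and IGFBP3 were too low to test. Where a call changed, the cause was not tested.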
